A study of Mus musculus with 6 samples.

Results

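Of 611 mouse miRNA entries on the array, 10 are described here, all of them known as markers of epithelial or renal tubular cells: mmu-miR-200a, mmu-miR-200b, mmu-miR-200c, mmu-miR-141 and mmu-miR-429 of the miR-200 family, and mmu-miR-192, mmu-miR-194, mmu-miR-215, mmu-miR-204 and mmu-miR-211 (the species prefix mmu is left out below). They were chosen by name, and all 10 names were found on the array. The samples were cultures of MCT, a line of mouse renal tubular cells from the SJL H-2S background, of which 3 arrays held RNA from cells stimulated with TGFβ (3 ng/ml, 72 hours) and 3 held RNA from control cells. The medium had 10% fetal calf serum during growth and 0.5% from the day before the cytokine was added, and each array received Cy3-labelled miRNA from 100 ng of total RNA. The labels do not say whether replicates were separate cultures, so p-values cover no more than the spread of these 6 arrays, part or all of which may be technical. MCT is a single cell line, and RNA was taken from whole cultures, so fewer cells with a miRNA and less of it per cell cannot be told apart.

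A miRNA silences mRNAs that match its seed, bases 2 to 8 of the mature strand. The miR-200 family keeps epithelial cells epithelial by repressing Zeb1 and Zeb2, the factors that switch off E-cadherin, and TGFβ is known to drive the opposite, mesenchymal state. miR-192, miR-194 and miR-215 are enriched in kidney and gut epithelium, and miR-192 has been described as both raised and lowered by TGFβ in different renal cells. miR-204 and miR-211 are epithelial and pigment-cell miRNAs carried in introns of Trpm genes, and miR-204 is abundant in renal tubules.

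The mature sequences are shown because they set which of the 10 share targets and how alike the sequences are that the probes must tell apart. They are RefSeq's (GRCm38.p6 table), 5′ to 3′, with the seed in capitals. The array lists its entries by older names without an arm. Each was matched to the arm that such a name stood for, and for miR-200a, miR-200b, miR-200c and miR-141 the array carries the opposite arm as a separate, starred entry.
miR-200a: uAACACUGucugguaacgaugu
miR-141: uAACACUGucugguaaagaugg
miR-200b: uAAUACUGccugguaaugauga
miR-200c: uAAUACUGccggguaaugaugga
miR-429: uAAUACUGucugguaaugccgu
miR-192: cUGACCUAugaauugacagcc
miR-215: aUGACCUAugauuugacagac
miR-194: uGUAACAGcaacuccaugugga
miR-204: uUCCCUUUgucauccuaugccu
miR-211: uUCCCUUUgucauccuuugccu

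The 10 miRNAs thus fall into 5 seed groups. miR-200a and miR-141 share one seed, and miR-200b, miR-200c and miR-429 share the other seed of the family. The 2 family seeds differ by 1 base (C4U from miR-200a to miR-200b, counted from 1 at the 5′ end). Outside the seed, miR-200a and miR-141 differ by C17A and U22G, and miR-200b and miR-200c by U11G and A22G over the 22 bases both have. miR-192 and miR-215 share a seed and differ at 3 bases in all (C1A, A12U and C20A). miR-204 and miR-211 differ at 1 base of 22, A17U. Between 36.4% and 47.6% of the bases of a mature strand were G or C. In the gene table, Mir200a, Mir200b and Mir429 lie next to each other, as do Mir200c and Mir141, Mir192 and Mir194-2, and Mir215 and Mir194-1, each within 10000 bases of the next. Mir204 lies inside Trpm3 and Mir211 inside Trpm1. miR-194 has 2 genes with the same mature strand, so its signal belongs to both. Probe sequences were not used here, and whether a probe of one miRNA also reads its near-identical relative was not tested, so readings of miRNAs as alike as miR-204 and miR-211 may be shared.

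None of the 10 miRNAs was well above background on any array of either group, a count of 0 of 60 miRNA-by-array readings. The scanner software marks each spot that lies well above background, and a miRNA was taken as detected where 1 of its probes or more had this mark on a share of at least 0.5 of its spots. Over all 611 mouse entries, 13.7% were well above background throughout 1 group or both, and 504 were so on no array. Each TGFβ array had between 86 and 103 such entries and each control array between 74 and 86, and no spot was saturated. The 10 miRNAs were read by 22 probes with 20 spots for each miRNA per array.

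Signals below are background-subtracted intensities, averaged over spots and probes and multiplied by an array factor that brings the 75th percentile of bright probes together. A value can fall below 0. The same factor was applied to the negative control spots, which carry no intended target and give the level of no signal. Their median was 1.47, 2.41 and 2.68 intensity units on TGFβ 1 to 3, against 1.50, 3.82 and 3.68 on control 1 to 3. Their 99th percentile lay between 12.8 and 15.6 units on the TGFβ arrays and between 13.8 and 21.0 on the control arrays. The dimmest mouse probe that was well above background read between 19.4 and 21.5 units on the TGFβ arrays and between 21.7 and 36.4 on the control arrays. On scaled signal the dimmest detected probes were thus brighter on the control arrays. The array factors were 0.895, 0.812 and 0.962 on TGFβ 1 to 3, against 0.898, 1.22 and 1.31 on control 1 to 3. Part of this gap, and of the gap between negative control medians, thus comes from the scaling. The limit set by the dimmest probe is for single probes. The mean over all probes of a detected miRNA can lie lower, as for miR-30c, which was well above background on 2 TGFβ and 2 control arrays with means of 11.3, 6.16 and 10.9 units on the TGFβ arrays, against 5.29, 24.0 and 26.9 on the control arrays.

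The miR-200 family sat at or under the negative controls. miR-200a read -1.19, 0.35 and -0.55 units on TGFβ 1 to 3, against -2.58, -0.66 and -0.93 on control 1 to 3. miR-141, of the same seed, read 2.91, 0.77 and -1.03 units on the TGFβ arrays, against 0.64, -1.15 and -0.59 on the control arrays. For both miRNAs the groups overlapped on scaled signal, and only miR-141 on TGFβ 1 exceeded the negative control median of its array.

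miR-200b read -0.18, -0.36 and 1.04 units on the TGFβ arrays, against 0.54, 0.11 and 2.33 on the control arrays. miR-200c read -2.33, -1.90 and -0.58 units on the TGFβ arrays, against -0.81, -2.90 and -1.89 on the control arrays. miR-429 read -0.28, 1.69 and 2.70 units on the TGFβ arrays, against 1.53, 2.02 and 0.25 on the control arrays. These 3 miRNAs with the second family seed also overlapped between the groups. miR-200c was below 0 on all 6 arrays. Over the family, 3 of 30 readings (10.0%) exceeded the negative control median of their array, against 21.4% of 2964 readings of the 494 other mouse entries that were well above background on no array.

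miR-192 stood highest of the 10 against the negative controls. It read 5.65, 4.34 and 3.77 units on TGFβ 1 to 3, against 7.35, 6.91 and 3.53 on control 1 to 3. It exceeded the negative control median on 5 of 6 arrays, and on control 3 it lay just under that array's median of 3.68. One of its 2 probes (A_54_P2461) exceeded the median on all 6 arrays, with 5.23 to 12.2 units over the arrays, and was the brighter probe on each of the 6. The other (A_54_P2460) did so on 3 arrays, with 0.0496 to 4.65 units. Of all 1521 probes of entries that were well above background on no array, 106 (6.97%) exceeded the negative control median on all 6 arrays, and 1 of the 22 probes described here did. At the level of entries, 48 of the 504 (9.52%) did so, and none of the 10 miRNAs did. The brighter miR-192 probe stayed below the 99th percentile of the negative control spots on every array. A mean over spots varies less than a single spot, so this percentile is a wide limit for it.

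miR-215, which shares the miR-192 seed, and miR-194, whose genes neighbour those of miR-192 and miR-215, did not follow miR-192. miR-215 read 0.67, -1.49 and 0.12 units on the TGFβ arrays, against -2.04, -2.43 and -2.00 on the control arrays. miR-194 read -0.21, -2.12 and -2.85 units on the TGFβ arrays, against -2.31, -2.82 and -4.03 on the control arrays. Neither exceeded the negative control median on any array. The 3 TGFβ readings of miR-215 all lay above its 3 control readings, while those of miR-194 overlapped.

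miR-204 read -1.48, -0.0052 and 0.90 units on TGFβ 1 to 3, against 1.50, 2.30 and 1.52 on control 1 to 3. Its 3 TGFβ readings all lay below its 3 control readings, and only control 1 exceeded the negative control median of its array. miR-211, which differs from miR-204 by A17U alone, read -0.27, 2.90 and 2.54 units on the TGFβ arrays, against 2.30, 6.83 and 2.46 on the control arrays. It exceeded the negative control median on 3 of 6 arrays (TGFβ 2, control 1 and control 2). The groups overlapped for miR-211, and control 2 stood above the other 5 arrays.

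**Figure D1:**
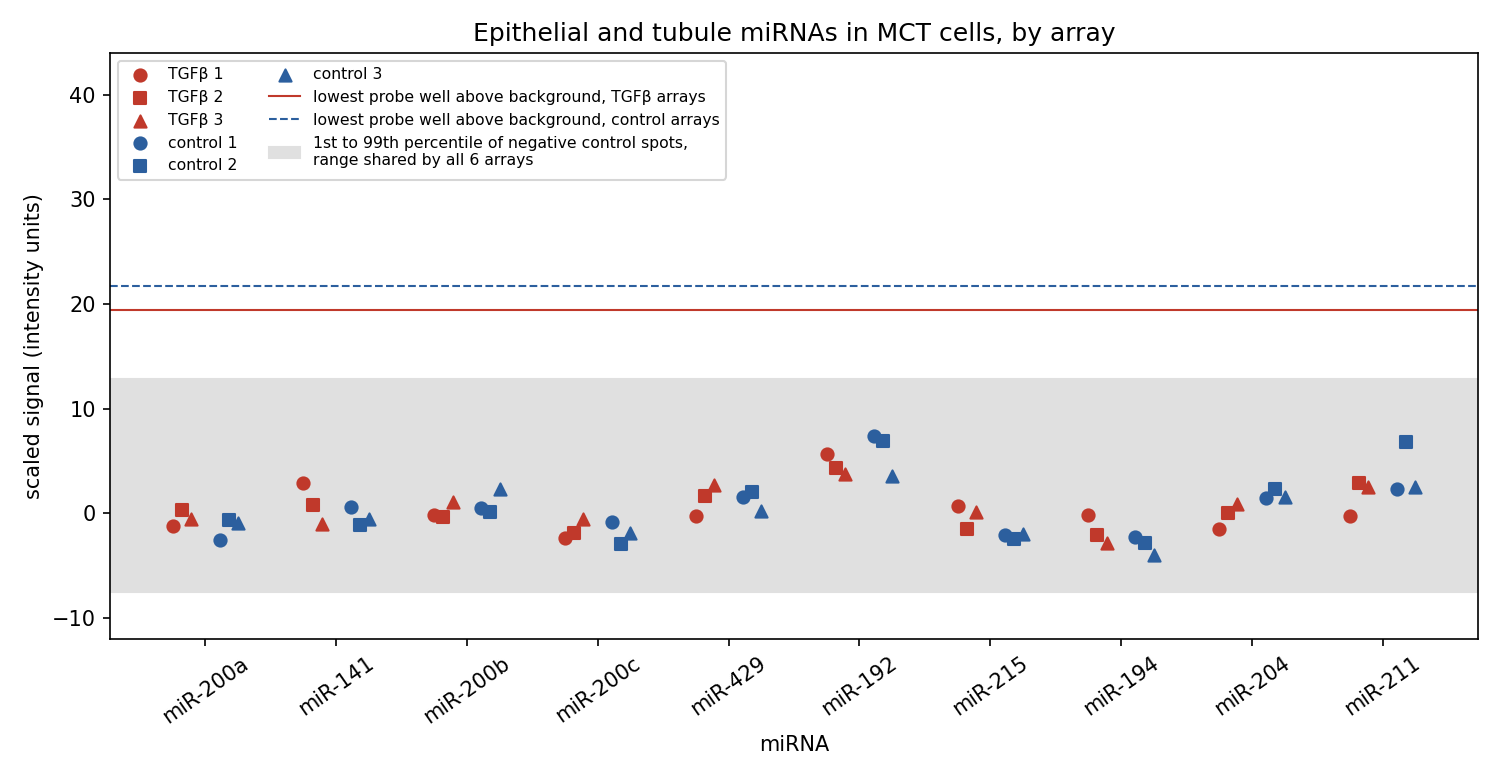
Scaled signal (intensity units) of the 10 miRNAs (horizontal axis) on the 3 TGFβ arrays (red, left in each column) and the 3 control arrays (blue, right), 1 point per array. The grey band is the range between the 1st and 99th percentile of negative control spots that all 6 arrays share, and the lines mark the dimmest probe well above background in each group (19.4 units on TGFβ arrays, 21.7 on control arrays). All 60 points lie inside the band.

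The plot of scaled signal by array shows the gap between these readings and the dimmest detected probes. The brightest probe reading of the 10 miRNAs was 13.1 units, by a miR-211 probe on control 2, where the dimmest probe well above background read 30.3. The gap was narrowest for miR-192 on control 1, where the dimmest probe well above background read 2.16 times the brighter miR-192 probe. The spots of one probe varied with a median SD of 4.41 units (0.909 to 12.3 over the probes and arrays). Of 132 probe readings, 60 (45.5%) were below 0, against 58.4% of 8994 probe readings of the other entries that were well above background on no array.

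Single spots were marked as well above background now and then. Of 1200 spot readings of the 10 miRNAs, 51 (4.25%) were marked as outliers by the software and left out, and 3 of the rest (0.261%) were well above background. All 3 were of miR-211, with 25.2 units on TGFβ 3, against 26.9 on control 1 and 32.3 on control 2, each on a different probe. Among the other entries that were well above background on no array, 228 spot readings (0.396% of those kept) carried the mark. None of the kept negative control spots did. With outlier-marked spots included, 59 of 2604 negative control spots (2.27%) carried it, against 13 of the 1200 spot readings of the 10 miRNAs (1.08%). Among the outlier-marked spots of the 10 miRNAs, 10 were well above background: 3 of miR-192, 2 each of miR-194, miR-429 and miR-204, and 1 of miR-211. That miR-211 spot read 3118 units on control 3, where the kept miR-211 spots reached at most 20.1, and negative control spots marked as outliers reached 1195 units on control 2.

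The comparison of TGFβ-treated with control cells asks whether the cytokine alters these miRNAs. Only miRNAs well above background throughout the TGFβ or the control arrays entered the fit across miRNAs (limma, Benjamini-Hochberg adjustment, threshold 0.05), and 0 of the 10 were among the 84 tested. Of these 84, 0 passed (percent called 0, smallest adjusted p = 0.391 in limma), with 8 at an unadjusted p under 0.05. With the replicate number as a block, 1 of 84 passed in limma, and it was none of the 10. With all 611 entries in the fit, 0 of the 10 passed, and 0 of 611 did (smallest limma adjusted p = 0.074, 21 at an unadjusted p under 0.05). In that fit readings under a floor of 1 unit were set to 1. All 6 readings of miR-200a, miR-200c, miR-215 and miR-194 lay under it, so these could not pass. Of the 10, only miR-192 lay above the floor on all 6 arrays. No fold is given for the 10, since they were not well above background in either group.

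Differences in intensity units were instead tested by exact permutation (two-sided), whose smallest possible p in this design is 0.1, so no difference could pass a threshold of 0.05. Over the 10 miRNAs the differences, TGFβ minus control, ran from -2.14 to 1.92 units, with 6 positive, 4 negative and a median of 0.18. The 504 entries that were well above background on no array had differences from -4.86 to 7.39 units and a median of 0.34. Standard errors (SE) ran from 0.66 to 1.79 units for the 10. The largest difference in size, that of miR-211, was 11.0% of the signal of the dimmest probe well above background on any array (19.4 units).

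The groups did not overlap for 2 of the 10, miR-204 and miR-215, against 11.1% of the 504 entries well above background on no array, a share near which the count of 2 lies. miR-204 averaged -0.19 ± 1.20 units in TGFβ-treated cells and 1.77 ± 0.45 in control cells (SD, n = 3 each), a difference of -1.97 (SE 0.74, exact permutation p = 0.1). miR-215 averaged -0.23 ± 1.12 units in TGFβ-treated cells and -2.16 ± 0.24 in control cells (SD, n = 3 each), a difference of 1.92 (SE 0.66, exact permutation p = 0.1). Both p-values are the smallest this design allows. With the median over spots in place of the mean, both pairs of groups overlapped: the difference was 0.48 for miR-215 (exact permutation p = 0.8) and -1.29 for miR-204 (exact permutation p = 0.2). The groups of miR-204 also overlapped with outlier-marked spots kept (-2.82, exact permutation p = 0.3), and those of miR-215 without scaling (1.61, exact permutation p = 0.2). Both pairs of groups overlapped too once each reading was set against the negative control median of its array. miR-204 then lay -2.95, -2.42 and -1.78 units from it on TGFβ 1 to 3, against 0.0043, -1.52 and -2.16 on control 1 to 3. For miR-215 the values were -0.80, -3.91 and -2.56, against -3.54, -6.25 and -5.68. On the brightest probe alone neither pair of groups overlapped. The difference there was -1.94 for miR-204 and 2.53 for miR-215 (exact permutation p = 0.1 each). Without scaling the groups of miR-204 stayed apart (-1.81, exact permutation p = 0.1). Those of miR-215 did so with outlier-marked spots kept (1.56, exact permutation p = 0.1).

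miR-192 averaged 4.58 ± 0.96 units in TGFβ-treated cells and 5.93 ± 2.09 in control cells (SD, n = 3 each), a difference of -1.35 (SE 1.33, exact permutation p = 0.4). Without single arrays it ranged from -2.55 to -0.64. It was -3.36 on the brighter probe alone and -0.33 without scaling between arrays. miR-211 differed by -2.14 (SE 1.79, exact permutation p = 0.6), and by -0.66 without control 2. With the outlier-marked spots kept it differed by -54.2, which rests on the single spot on control 3. The differences of the miR-200 family were 1.25 (SE 1.26) for miR-141, 0.93 (SE 0.75) for miR-200a, 0.26 (SE 0.80) for miR-200c, 0.11 (SE 1.02) for miR-429 and -0.83 (SE 0.81) for miR-200b. These 5 spread on both sides of 0, and those of miR-200c and miR-429 changed sign under other settings. Leaving out 1 array moved each of the others by over 1.5 times. The difference of miR-141 was 0.24 without TGFβ 1 and 2.21 without TGFβ 3, that of miR-200a 0.33 without control 1, and that of miR-200b -0.16 without control 3. With outlier-marked spots kept, miR-200a differed by 0.03. With the median over spots it differed by 2.11 (exact permutation p = 0.1), and its groups did not overlap. They did not overlap either against the negative control median of each array. There miR-200a lay -2.66, -2.07 and -3.23 units from it on TGFβ 1 to 3, against -4.08, -4.48 and -4.61 on control 1 to 3. The share of the 504 entries that separate on these measures was not computed. miR-194 differed by 1.33 (SE 0.94), and by 0.57 without TGFβ 1. At signals this dim the data do not show that these miRNAs stayed level.

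Arrays of the same replicate number deviated together over the tested miRNAs, so the differences were also taken within the 3 pairs of equal number, a comparison chosen after the data were seen. Of the 10, 5 had one sign in all 3 pairs, against 26.2% of the 504 entries well above background on no array. miR-200a differed by 1.40, 1.01 and 0.38 units in pairs 1 to 3, and miR-200b by -0.72, -0.47 and -1.29. miR-194 differed by 2.10, 0.71 and 1.18 units, miR-215 by 2.71, 0.94 and 2.12, and miR-204 by -2.98, -2.30 and -0.62. The 2 members of the miR-200 family in this group of 5 thus differed in opposite directions on scaled signal. With 3 pairs the smallest possible p of the exact two-sided sign-flip test is 0.25, which these 5 had, so none could pass. Against the negative control median of each array, miR-200b and miR-204 did not keep one sign. On that measure miR-200b read -1.66 against -0.96 units in pair 1 (TGFβ against control) but -2.77 against -3.71 in pair 2. miR-204 read -2.95 against 0.0043 in pair 1 but -1.78 against -2.16 in pair 3. miR-200a, miR-194 and miR-215 kept one sign, and miR-141 gained it. The share of the 504 entries on that measure was not computed.

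**Figure D2:**
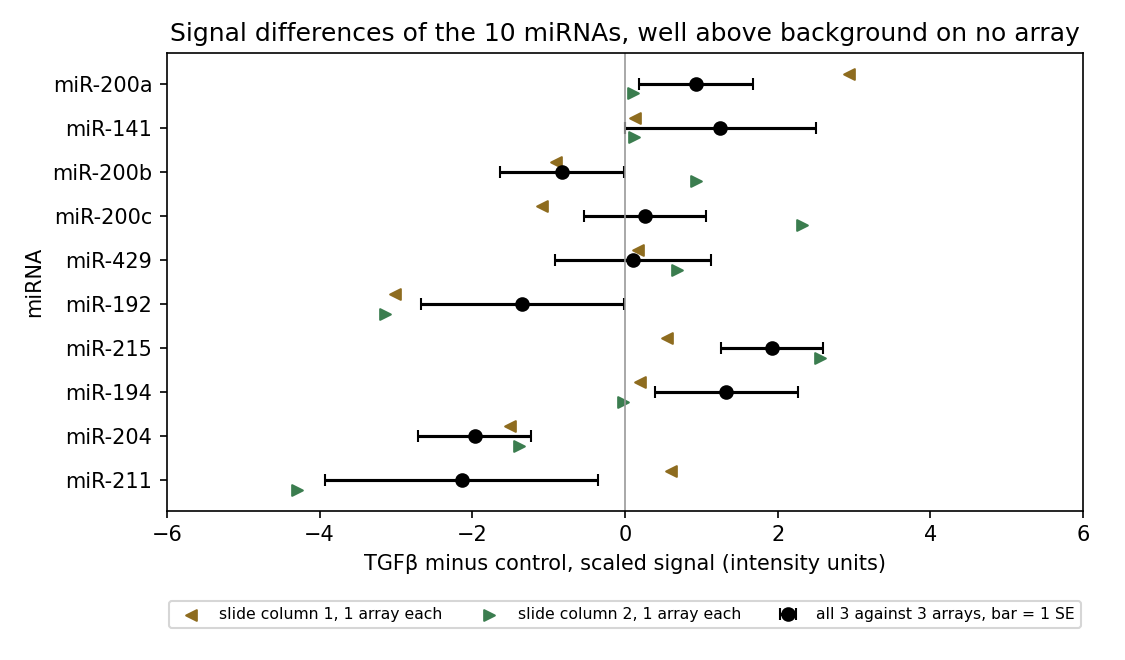
TGFβ minus control difference in scaled signal (horizontal axis, intensity units) for each of the 10 miRNAs, black points for 3 against 3 arrays with bars of 1 SE, and triangles for the slide columns that held 1 array of each group. The black points lie between -2.14 (miR-211) and 1.92 (miR-215), and the column values lie on both sides of 0 for miR-200b, miR-200c, miR-194 and miR-211.

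The 6 arrays lay on 1 slide, and its columns 1 and 2 each held 1 array of both groups. Within column 1 the difference was -3.02 units for miR-192, -1.51 for miR-204, 0.55 for miR-215 and 0.60 for miR-211. Within column 2 it was -3.15 for miR-192, -1.39 for miR-204, 2.56 for miR-215 and -4.29 for miR-211. The sign was the same in both columns for miR-192, miR-204 and miR-215 and opposite for miR-211. In both columns the TGFβ array lay in slide row 2 and the control array in row 1, so row and treatment cannot be told apart there. Row 1 held TGFβ 1 and all 3 control arrays, and within it the difference was -0.29 for miR-192, -3.25 for miR-204, 2.83 for miR-215 and -4.13 for miR-211. These values rest on 1 TGFβ array each and have no replicate check.

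The 4 opposite arms on the array gave no further signal. The starred strands of miR-200a, miR-200b, miR-200c and miR-141 were well above background on 0 of 6 arrays, and none of their kept spots carried the mark. Their summed signal lay between -13.4 and -8.66 units on the TGFβ arrays and between -16.5 and -6.97 on the control arrays. Neither strand of these 4 hairpins was well above background. Opposite arms of the other 6 were not analysed here.

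Other miRNAs known from epithelial and tubular cells were detected in the same RNA. Of 6 other epithelial miRNAs, 3 were well above background on all 6 arrays: miR-182, miR-183 and miR-96, which are made from one cluster. On the log2 scale of scaled signal miR-183 read 7.33 ± 0.16 in TGFβ-treated cells and 7.40 ± 0.0085 in control cells (SD, n = 3 each). miR-182 read 5.92 ± 0.54 in TGFβ-treated cells and 5.63 ± 0.06 in control cells (SD, n = 3 each). miR-203 and miR-205, of stratified epithelium, and miR-375, of endocrine and secretory epithelium, were well above background on no array.

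Of 9 other tubule miRNAs, 7 were well above background on at least 1 array and 5 on all 6. Those 5 were miR-10a, miR-10b, miR-196a and miR-196b, which lie in Hox clusters, and miR-30a, of a family abundant in kidney epithelium. miR-10a read 7.99 ± 0.18 (log2 scaled signal) in TGFβ-treated cells and 8.33 ± 0.11 in control cells (SD, n = 3 each). miR-30a read 7.59 ± 0.34 in TGFβ-treated cells and 8.26 ± 0.55 in control cells (SD, n = 3 each). miR-30d was well above background on 3 TGFβ arrays and 1 control array and miR-30c on 2 and 2, while miR-30b and miR-30e were so on none. Of the 15 epithelial and tubule miRNAs beside the 10, 9 entered the fit and 0 passed in limma, the smallest adjusted p being 0.391 (miR-10a, miR-10b and miR-30a). Scaling between arrays shifted every log2 difference above the floor by -0.35, which is also the scaled difference of miR-10a. Without it, the log2 difference, TGFβ minus control, was -0.33 rather than -0.68 for miR-30a, 0.63 rather than 0.29 for miR-182 and 0.28 rather than -0.07 for miR-183, which changed sign. When control 1 was left out, limma called 29 of 85 tested miRNAs (10 with a positive and 19 with a negative difference), and again 0 of the 10 were among those tested. miR-96, miR-10b, miR-30a and miR-30c were among the 19, with log2 differences of -0.59, -0.71, -0.99 and -1.48 (limma adjusted p = 0.047, 0.0235, 0.0293 and 0.0232). Array factors were 1.22 and 1.31 on control 2 and 3, against 0.898 on control 1 and 0.895, 0.812 and 0.962 on TGFβ 1 to 3. Leaving out control 1 therefore makes the shift by scaling more negative than -0.35 in this fit. How many of the 29 calls hold without scaling was not tested.

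**Figure D3:**
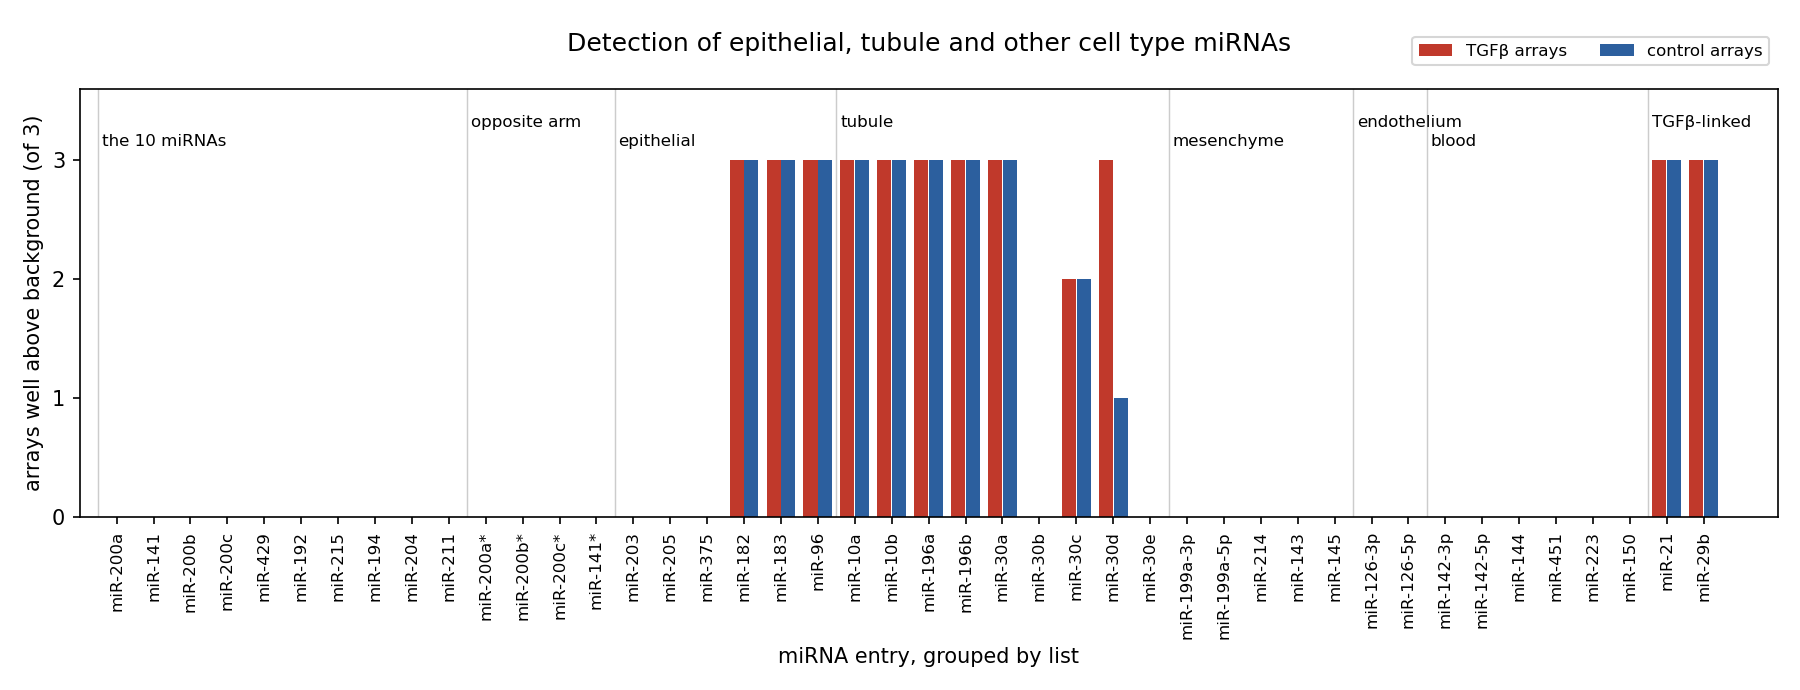
Number of arrays, of 3 in each group, on which each miRNA entry was well above background (vertical axis), red bars for TGFβ arrays and blue bars for control arrays, grouped by list along the horizontal axis. The 10 miRNAs and the 4 opposite arms have no bar, whereas miR-182, miR-183, miR-96, miR-10a, miR-10b, miR-196a, miR-196b and miR-30a reach 3 in both groups.

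The labelled cell type was set against these markers. Tubule or epithelial miRNAs were detected from the miR-10, miR-196, miR-30 and miR-183 groups, while the tubule miRNAs miR-192, miR-194 and miR-204 and the whole miR-200 family were not detected in either group. Markers of other cell types were not detected either. Of 5 entries for miR-199, miR-214, miR-143 and miR-145, which mark fibroblasts and smooth muscle, 0 were well above background on any array, and their summed signal lay between -12.1 and -6.99 units on the TGFβ arrays and between -15.3 and -7.61 on the control arrays. The 2 endothelial and 6 blood cell entries were likewise well above background on 0 arrays. miR-21 and miR-29b, both studied in TGFβ-driven renal fibrosis, were well above background on all 6 arrays. miR-21 read 11.78 ± 0.34 (log2 scaled signal) in TGFβ-treated cells and 11.38 ± 0.34 in control cells (SD, n = 3 each). Its log2 difference was 0.40 (SE 0.26, limma adjusted p = 0.433), or 0.74 without scaling. Within slide column 1 it was -0.38 and within column 2 it was 0.93, on 1 array of each group.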

How the data were processed

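Fluorescence intensity was read on 6 one-colour Agilent miRNA arrays. Per the file headers, the deposited gProcessedSignal intensity was background-subtracted within each array by Feature Extraction (10.7.3.1 per the headers, 10.1.1 per the submitters' processing notes) and not scaled between arrays, and the deposited flags are other values of 0 or 1 per spot. The deposited value table held the same intensities (largest difference 0). The headers name another genome build than the RefSeq table (GRCm38.p6), so no coordinates are given. All 10 miRNAs matched that table.

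Spots marked as outliers were left out, and spots of a probe and probes of a miRNA were averaged. A factor per array then equalised the 75th percentile of the 105 probes that were well above background on each of the 6. For the fit, a floor of 1 was set and log2 taken (limma 3.58.1, R 4.3.3). The limma step was tested on simulated data with changes larger than any log2 difference given here and with noise independent between arrays. That test does not tell whether smaller changes could have been found. The number of arrays limits the precision. Groups came from the sample titles. Samples of the same replicate number deviated together (correlations 0.38, 0.37 and 0.52 of deviations from group means, over the tested miRNAs), a pairing that comes from the data and not from the labels. The 10 miRNAs and all lists were chosen with earlier results of these data known. Text names all 10, their opposite arms on the array, and the entries of the epithelial, tubule and other marker lists. A rule to name miRNAs of like pattern applied only to miRNAs well above background on all 6 arrays, so it named none. Alternatives changed the detection rule, scaling, background correction, filter, floor, block and arrays used.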

Additional observations from a re-analysis of the deposited data

How the results depend on the processing

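The count of 0 of 60 detected readings held at 0 with all spots required, with all probes required, with outlier-marked spots kept, with the software's own detection call per miRNA, and with the 99th percentile or the mean plus 3 SD of the negative control spots as the limit. Counting a probe by any 1 spot gave 3 of 60, all miR-211. The count of 0 of 10 detected in a group stayed 0 under these rules and without any single array. None of the 10 entered any fit except the one with no filter, so their count of 0 elsewhere carries no information. With no filter none was called either. There miR-200a, miR-200c, miR-215 and miR-194 lay under the floor of 1 on all 6 arrays and could not be called. Over all tested miRNAs the count moved from 0 to 1 with the replicate block and ranged from 0 to 29 with single arrays left out, 29 being without control 1. The fit without control 1 was not repeated without scaling. No other alternative gave a call.

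Of the differences in intensity units none could pass under any alternative, the smallest possible exact p being 0.1 (0.25 within the pairs of the replicate block, added after the data were seen), so the count of 0 says nothing about stability. Signs turned only for miR-200c and miR-429. miR-200c differed by 0.26 as reported and by -0.27 without scaling, -0.23 with outlier-marked spots and -0.35 on its brightest probe, and without single arrays it ranged from -0.25 to 0.79. miR-429 differed by 0.11 as reported and by -0.18 with the median over spots, -0.44 with outlier-marked spots and -0.49 on its brightest probe, and without single arrays it ranged from -0.56 to 0.93. The cause was not tested. The dimmest probe well above background read 19.4 to 36.4 units over the arrays, which limits what could be detected.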
